A study of Mus musculus with 10 samples.

Results

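The sham-operated kidneys of the series show what sorted renin cells express when the aorta has not been narrowed. They are 4 of the 10 libraries, chosen by their labels as the left and the right kidney of sham mouse 1 and of sham mouse 2. The other 6 libraries come from 3 mice with aortic coarctation. All mice were adult C57BL/6 animals aged 8 to 12 weeks that carried the Ren1c-YFP reporter, a yellow fluorescent protein (YFP) gene driven by renin regulatory sequence. In coarctation mice the aorta was narrowed between the origins of the renal arteries. Sham mice had the operation without exposure or narrowing of the aorta, so they are operated controls and no unoperated mouse is among the samples. At 72 h after surgery, living (DAPI-negative) YFP-positive cells were sorted from the cortex of each kidney, 1000 cells per kidney, and cDNA was made with SMART-Seq v4. Sex is not given in the labels.

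Renin cells, or juxtaglomerular cells, sit in the wall of the afferent arteriole where it enters the glomerulus. They belong to the same stromal lineage as the smooth muscle cells and pericytes of kidney vessels, and they store renin, the protease that cuts angiotensinogen into angiotensin I, in acid granules. Cyclic AMP drives renin release, and a fall in perfusion pressure or sympathetic input through beta-adrenergic receptors calls for more, while angiotensin II feeds back on the cells.

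Sham libraries held 20029817 to 30055470 estimated counts, within or just below the range of the coarctation libraries (23972981 to 32006229). Levels are given as TPM, which corrects for transcript length and scales each library to the same total, in the order left and right kidney of mouse 1, then left and right kidney of mouse 2. A mean ± SD is over the means of the 2 mice (n = 2). In all 4 sham libraries, 9615 of 32648 genes reached 1 TPM, 3741 reached 10 TPM, 925 reached 100 TPM and 132 reached 1000 TPM. The kidneys of one mouse resembled each other more than kidneys of different mice. The Pearson correlation of log2 CPM (counts scaled to library size) across the 18825 genes kept by the count filter was 0.912 within mouse 1 and 0.931 within mouse 2, against 0.884 to 0.9 between mice. The median absolute log2 difference was 0.556 and 0.541 within mice and 0.881 to 1.01 between them. These are descriptions across genes, which are not independent, and the libraries differ in depth. Sham mouse 1 also had more genes at 1 TPM or more (12804 and 13063) than sham mouse 2 (11503 and 11427) or any coarctation library (11035 to 11914).

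Renin itself dominated the cells. Ren1, the only renin gene of C57BL/6 mice (chromosome 1, GRCm38, 133350510 to 133360325, plus strand, 9 exons), had 30521 and 21776 TPM in mouse 1 and 43896 and 48591 TPM in mouse 2. It made up 3.05% and 2.18% of all TPM in mouse 1 and 4.39% and 4.86% in mouse 2. Ren1 ranked first in both libraries of mouse 2 and second in both of mouse 1, behind the predicted gene Gm29216 (47157, 37117, 29764 and 19294 TPM), which resembles mitochondrial sequence. The mean of Ren1 was 36196 ± 14209 TPM. Both kidneys of mouse 2 lay above both of mouse 1, 1.77-fold by their means, whereas the sides crossed, with the left higher in mouse 1 and the right higher in mouse 2. In bulk libraries of sorted cells, fewer renin cells in the sort and less renin message per cell cannot be told apart.

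The 250 bases before the RefSeq start of Ren1 (GRCm38.p6, chr1:133350424-133350673, plus strand) are shown because they belong to the most abundant named gene. The motif TATAAA is in capitals at positions -29 to -24, counted back from -1 at the base before the start, and GENCODE annotates a longer transcript that begins inside the window.
Ren1: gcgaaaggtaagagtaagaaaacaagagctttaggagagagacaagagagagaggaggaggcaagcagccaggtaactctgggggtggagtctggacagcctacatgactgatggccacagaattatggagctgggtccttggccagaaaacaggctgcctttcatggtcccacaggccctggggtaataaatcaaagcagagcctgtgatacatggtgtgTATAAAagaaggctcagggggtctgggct
TATAAA, searched on both strands, occurs in 14.3% of the 27025 RefSeq windows of this length. Of the 25 most abundant named genes, 19 had a window, 3 of these held TATAAA (15.8%) and 13 held GGGCGG (68.4%, against 35.4% of all windows). A match describes letters only.

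The 25 most abundant genes, leaving out mitochondrially encoded, ribosomal protein and predicted genes, held 17.5% to 20.7% of TPM in each sham library. Crip1, a small LIM-domain protein, followed Ren1 with 13544, 13987, 17089 and 18880 TPM. Myl6, the essential light chain of non-sarcomeric myosin, had 9646, 10813, 14236 and 15625 TPM. The regulatory light chain Myl9 had 3151, 3494, 7735 and 8068 TPM, so it differed more between mice than Myl6. Akr1b7, an aldo-keto reductase that marks renin cells, ranked 55 and 72 in mouse 1 and 9 and 8 in mouse 2. Its levels were 2874, 2245, 8252 and 9780 TPM, 3.52-fold higher in mouse 2 by the means.

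Sncg, a synuclein, ran from 5204 to 6988 TPM. Gng11, a G-protein gamma subunit, ran from 4652 to 5437 TPM, and all 4 sham libraries lay above the 6 coarctation libraries (2788 to 4307 TPM), a range comparison with no test. The iron-storage chains Ftl1 (7660 to 11242 TPM) and Fth1 (3563 to 4833 TPM), ubiquitin Ubb (5478 to 8038 TPM), the actin-binding peptide Tmsb4x (6432 to 8487 TPM), the prolyl isomerase Ppia (6152 to 7297 TPM) and calmodulin Calm2 (3415 to 6042 TPM) belong to most cells. Nuclear-encoded parts of the respiratory chain and ATP synthase filled much of the rest, with Uqcr11, Ndufa1, Cox6a1, Cox8a, Atpif1, Cox6c, Cox4i1, Uqcr10 and Usmg5 each between 2822 and 9268 TPM. Fxyd1 and Fxyd2 are small regulators of the sodium pump. Fxyd1, known from muscle, held 3836 to 5475 TPM in the 4 libraries. Fxyd2, known from tubule epithelium, had 9451 and 9178 TPM in mouse 1 and 2788 and 3495 TPM in mouse 2.

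**Figure D1:**
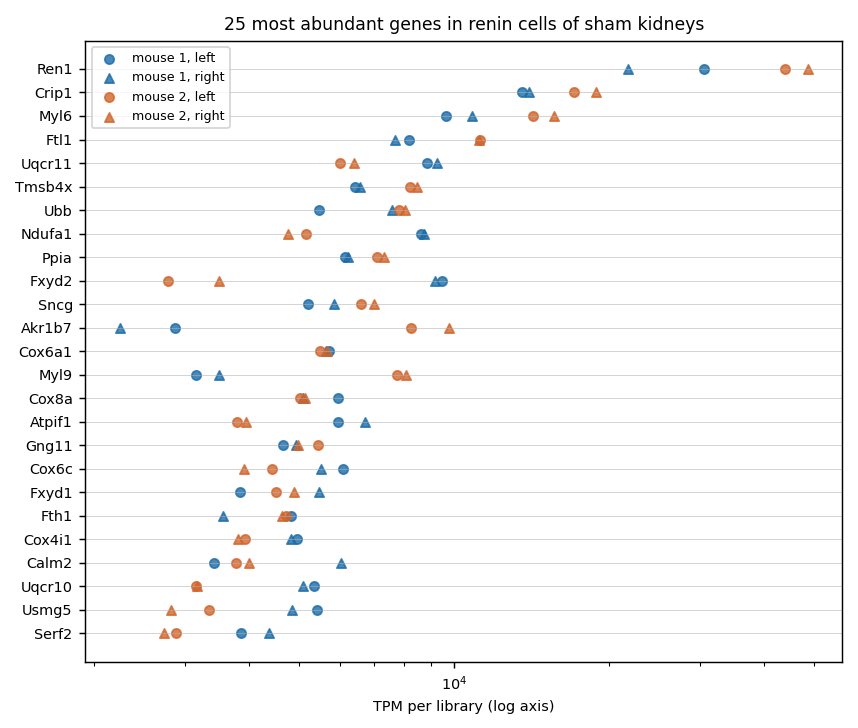
TPM (log axis) of the 25 most abundant named genes in each sham library; blue marks mouse 1, orange mouse 2, circles left and triangles right kidneys. Ren1 is the highest named gene in all 4 libraries, Akr1b7 and Myl9 lie higher in mouse 2, and Fxyd2 lies higher in mouse 1.

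Markers of the labelled cell type were described next. Of 20 renin cell genes, 18 reached 1 TPM and 16 reached 10 TPM in all 4 libraries. Among the 18825 tested genes, 9605 and 3740 did so. The list holds EYFP, on which the cells were sorted, and Ren1, and it was chosen with earlier results known. The counts are therefore a description and not a test of identity. Of 22 proximal tubule genes, 17 also reached 1 TPM. EYFP, the reporter used for the sort, had 189 and 176 TPM in mouse 1 and 717 and 979 TPM in mouse 2, 4.65-fold higher in mouse 2, and its rank among all genes was 696, 761, 257 and 183. Aldh7a1, an aldehyde dehydrogenase, had 281, 242, 514 and 485 TPM. Kiss1, which encodes kisspeptin, had 145, 84.5, 258 and 98.3 TPM, lower in the right kidney of both mice. Adra1b and Cyp11a1 stayed below 1 TPM in the 4 sham libraries. Lmna, which encodes lamins A and C, had 58.1, 44.6, 85.0 and 97.5 TPM.

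Genes of the contractile apparatus were detected in the same libraries as renin. Bulk libraries cannot tell whether the same cells carried both. Of 24 contractile genes, 23 reached 1 TPM and 19 reached 10 TPM in all 4 libraries. Tropomyosin Tpm2 had 1187, 1214, 2908 and 3153 TPM, smooth muscle actin Acta2 843, 1018, 1851 and 2312 TPM, and the actin-crosslinking Tagln 559, 570, 1233 and 1338 TPM. All 3 lay higher in mouse 2 without overlap. Smooth muscle myosin Myh11 differed from them, with 92.6, 133, 119 and 118 TPM and no separation of the mice. Among mural cell genes, Ndufa4l2 and Cox4i2, hypoxia-linked respiratory subunits typical of pericytes, averaged 564 ± 323 and 386 ± 169 TPM, and the G-protein regulator Rgs5 had 355, 432, 591 and 516 TPM. The stromal factor Ebf1 was nearly constant at 63.5 to 71.3 TPM, and Ebf2 and Tbx18 stayed below 1 TPM. The mesangial list, which shares Akr1b7, Agtr1a and Pdgfrb with other lists, included the protease inhibitor Serpine2 at 548, 541, 1153 and 1675 TPM and the kidney stromal factor Gata3 at 20.7 to 32.8 TPM.

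The 250 bases before the RefSeq start of Myl9 (GRCm38.p6, chr2:156775214-156775463, plus strand) are given as an example from the contractile genes, most of which lay higher in mouse 2. The capitals mark a CArG box, the element bound by serum response factor, at -161 to -152.
Myl9: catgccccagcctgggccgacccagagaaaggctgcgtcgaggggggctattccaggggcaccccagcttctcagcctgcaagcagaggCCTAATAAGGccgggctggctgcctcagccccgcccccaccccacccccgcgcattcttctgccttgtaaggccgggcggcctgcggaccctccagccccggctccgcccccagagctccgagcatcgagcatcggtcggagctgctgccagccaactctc
A CArG box was found in the windows of 4 of the 19 contractile genes that had one (21.1%) and in 1.62% of all windows, searched on both strands. The binding of any factor was not measured.

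The renin-angiotensin system beyond Ren1 was represented by its receptors. Agtr1a, the main angiotensin II receptor of the mouse kidney, had 75.4, 64.9, 103 and 80.3 TPM. Atp6ap2, the (pro)renin receptor and an accessory part of the proton pump, had 23.6, 32.5, 59.9 and 48.4 TPM, and the angiotensin-cleaving aminopeptidase Enpep had 24.3 to 35.4 TPM. Converting enzyme Ace, Agtr2, chymase Cma1 and cathepsin G (Ctsg) stayed below 1 TPM in the 4 libraries. For Agtr1a, 3 of the 4 sham values lay above the highest coarctation value (71.7 TPM), and the right kidney of mouse 1 did not.

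Some receptors known to act on renin release reached moderate levels, while others stayed below 1 TPM. Ramp1, the partner that makes Calcrl a receptor for the vasodilator peptide CGRP, had 59.7, 59.0, 83.4 and 88.3 TPM, and Calcrl 4.83 to 10.2 TPM. The parathyroid hormone receptor Pth1r had 40.3 to 54.0 TPM. The beta-1 adrenergic receptor Adrb1, through which renal nerves act, had 8.78, 8.02, 17.3 and 13.1 TPM. Endothelin receptors Ednra and Ednrb averaged 18.8 ± 5.32 and 21.3 ± 8.69 TPM. The adenosine receptor Adora1, which inhibits release, had 8.57 to 12.6 TPM, and Adora2a and the mechanosensitive channel Piezo1 stayed below 1 TPM. Of 22 receptor genes, 11 reached 1 TPM and 5 reached 10 TPM in all 4 libraries, and 3 stayed below 1 TPM in all 4. These shares lay near those of the 18825 tested genes, of which 9605 reached 1 TPM and 3740 reached 10 TPM.

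Downstream of them, Gnas, the stimulatory G-protein alpha subunit that activates adenylyl cyclase, was the highest of 32 cyclic nucleotide genes at 595, 781, 1144 and 1310 TPM. Prkar1a, a regulatory subunit of protein kinase A, had 85.7, 110, 158 and 200 TPM. Pde1a, a calcium-stimulated phosphodiesterase, was higher in the right kidney of both mice, at 87.3 and 126 TPM in mouse 1 and 88.9 and 165 TPM in mouse 2 (log2 change 0.70, SE 0.33; edgeR adjusted p = 1). Gucy1a3, a subunit of the nitric oxide receptor guanylyl cyclase, had 57.3 to 71.6 TPM.

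Gap junction genes couple renin cells to their neighbours. Gja5, the connexin 40 gene whose loss displaces renin cells in mice, had 15.5, 15.0, 21.1 and 21.1 TPM, close to equal between sides. Gja4 had 11.6, 22.6, 52.2 and 76.3 TPM, and Gjc1 26.43, 22.04, 49.96 and 46.27 TPM. Gja1, abundant in many other cells, stayed below 1 TPM. Of 12 connexin and pannexin genes, only these 3 (Gja4, Gjc1 and Gja5) reached 10 TPM in all 4 libraries.

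Transcription factors of the stromal and vascular lineage included Mef2c at 113, 122, 172 and 182 TPM, Nr2f2 at 51.5 to 64.2 TPM and Tbx2 at 35.3 to 65.7 TPM. Rbpj, the nuclear effector of Notch signalling required to keep the renin cell identity, had 66.2, 53.4, 40.9 and 44.4 TPM and was lower in mouse 2, unlike most renin cell genes. The Notch target Hes1 had 177, 258, 424 and 433 TPM, and the receptor Notch3 8.71 to 14.4 TPM.

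The secretory route was well covered. Dad1, a subunit of the oligosaccharyl transferase, averaged 1262 ± 14.8 TPM, and the signal peptidase part Spcs1 687 ± 19.1 TPM, with little difference between mice. The cyclophilin Ppib, which folds proteins in the endoplasmic reticulum, had 519, 482, 561 and 587 TPM. Ddit3, a factor of the response to unfolded proteins, had 121, 107, 299 and 292 TPM. Of 27 genes of lysosomes and acid granules, 26 reached 1 TPM in all 4 libraries. Cd63, a membrane protein of such granules, had 1714, 1655, 1977 and 2148 TPM, and the proton pump subunit Atp6v0e 1249 to 1348 TPM. Cathepsin B (Ctsb), a protease of renin granules, had 134, 96.0, 219 and 263 TPM. Matrix and contact genes were led by Mgp, an inhibitor of vessel calcification, at 2818, 1682, 2925 and 2863 TPM, and by the integrin activator Fermt2 at 227 to 332 TPM.

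Transcripts of other kidney cells were also in the sort. Proximal tubule genes summed to 10194 and 8415 TPM in mouse 1 and 3315 and 2851 TPM in mouse 2, against 3155 to 15408 TPM in coarctation libraries, and 17 of 22 reached 1 TPM in all 4 sham libraries. Kap, an androgen-regulated proximal tubule protein, had 4524, 3144, 397 and 780 TPM, and Spink1, a secreted trypsin inhibitor, 1792, 1633, 562 and 367 TPM. Loop and distal tubule genes summed to 2301, 1108, 204 and 358 TPM, with uromodulin (Umod) at 188, 42.4, 0.107 and 14.2 TPM. Collecting duct genes summed to 470, 289, 495 and 168 TPM, with the water channel Aqp2 at 99.7, 39.8, 82.3 and 9.49 TPM. The part of these tubule transcripts in the differences described below was not tested.

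Markers of other cell types were also measured. Endothelial genes summed to 126 to 170 TPM, of which Emcn held 65.3 to 94.2 TPM and Esam 23.3 to 42.2 TPM. Of 18 endothelial genes, 4 reached 1 TPM in all 4 libraries, and 3 (Cdh5, Erg and Sox17) stayed below 1 TPM in all 4. Podocyte genes summed to 75.4, 173, 138 and 108 TPM. Of 14 podocyte genes, 8 reached 1 TPM and 1 reached 10 TPM in all 4 libraries, and the defining Nphs1 had 0.229 to 1.74 TPM. Leukocyte genes summed to 513, 159, 186 and 440 TPM, mostly from antigen presentation genes such as Cd74 (211, 72.9, 76.2 and 169 TPM). Of 21 leukocyte genes, 8 reached 1 TPM in all 4 libraries. The 7 that stayed below 1 TPM in all 4 were the pan-leukocyte gene Ptprc and the lineage genes Adgre1, Cd3e, Cd79a, Ccr2, Cx3cr1 and S100a9. Fibroblast genes summed to 397, 200, 35.5 and 115 TPM. Ly6a made up most of that (373, 170, 18.3 and 95.1 TPM). Of 12 fibroblast genes, 4 reached 1 TPM in all 4 libraries and 4 stayed below it in all 4, among them Pdgfra, Lum and Dpt. Red blood cell genes summed to 1239, 932, 2299 and 4346 TPM, nearly all from hemoglobin genes.

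**Figure D2:**
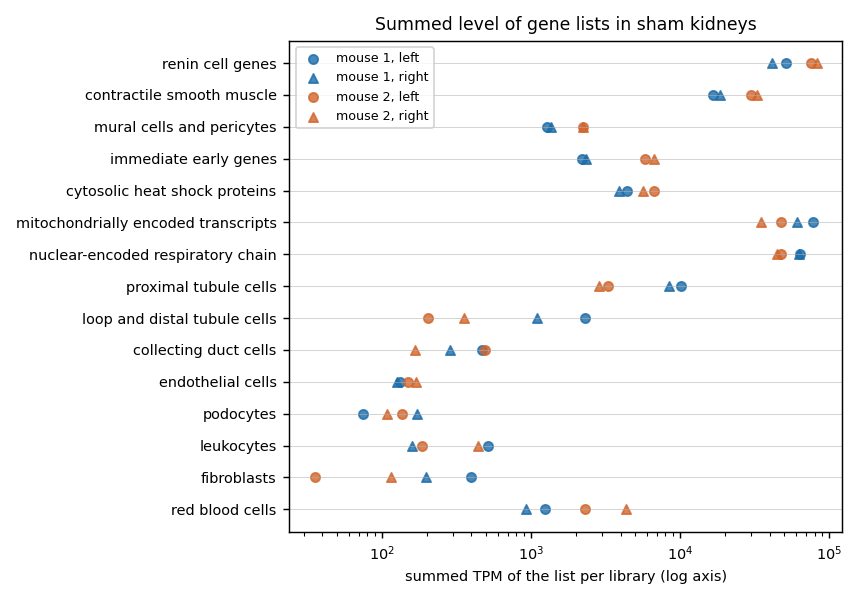
Summed TPM (log axis) of 15 gene lists in each sham library, with blue for mouse 1, orange for mouse 2, circles for left and triangles for right kidneys. Renin cell, contractile and immediate early genes sum higher in mouse 2, proximal and distal tubule and mitochondrially encoded genes sum higher in mouse 1, and collecting duct genes are lower in the right kidney of each mouse.

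The sham mice differed from each other more than their kidneys did. With 1 mouse on each side there is no test, and what follows is description. Both kidneys of mouse 1 lay above both of mouse 2 in TPM for 38.3% of the 18825 tested genes, and both of mouse 2 above both of mouse 1 for 20.3%. Among 4997 genes with a mean of 10 TPM or more, 944 were at least 2-fold apart without overlap, 289 higher in mouse 1 and 655 higher in mouse 2.

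Renin cell, smooth muscle and rapid-response genes lay on the side of mouse 2. Of renin cell genes, 12 of 20 were higher in mouse 2 (60.0%, against 20.3% of all tested genes) and 2 in mouse 1 (10.0%, against 38.3%). Of contractile genes, 15 of 24 were higher in mouse 2 (62.5%) and 1 in mouse 1 (4.17%). Most members reached 10 TPM in all 4 libraries (16 of 20 and 19 of 24). Genes with a mean of 10 TPM or more that were 2-fold apart also lay mostly higher in mouse 2 (655 against 289). The part of abundance in the lean of these lists was not tested. Immediate early genes, which are transcribed within minutes of a stimulus and also during tissue dissociation, were higher in mouse 2 for 21 of 23 tested (91.3%), with a median log2 difference, mouse 1 minus mouse 2, of -1.13 against 0.133 over all tested genes. Fos, a subunit of the AP-1 factor, had 550, 644, 1580 and 1658 TPM, its partner Jund 142, 129, 601 and 839 TPM, and the phosphatase Dusp1 259, 302, 665 and 723 TPM. Cytosolic heat shock genes were higher in mouse 2 for 15 of 22 (68.2%), and chaperones of the endoplasmic reticulum for 14 of 24 (58.3%), against the same 20.3%.

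Proximal tubule, loop and distal tubule and mitochondrially encoded transcripts lay on the side of mouse 1, whereas collecting duct genes did not. Of 20 collecting duct genes, 2 were higher in mouse 1 (10.0%, against 38.3% of all tested genes) and 4 in mouse 2 (20.0%, against 20.3%). All 22 proximal tubule genes were higher in mouse 1, with a median log2 difference of 1.77, as were 11 of 15 loop and distal tubule genes (73.3%). The share over all tested genes was 38.3%. All 13 mitochondrially encoded genes were also higher in mouse 1, with a median log2 difference of 1.06. They made up 7.78% and 6.08% of TPM in mouse 1 and 4.75% and 3.51% in mouse 2. Of 30 nuclear-encoded respiratory chain genes, 20 were higher in mouse 1 (66.7%, against 38.3%) and 6 in mouse 2 (20.0%, against 20.3%). Of 83 cytosolic ribosomal protein genes, 28 were higher in mouse 1 (33.7%, against 38.3%) and 23 in mouse 2 (27.7%, against 20.3%). Cytosolic ribosomal protein genes held 4.25% to 4.76% of TPM.

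The 10 named genes with the largest excess in mouse 1 were Umod, Egf, Acaa1b, S100g, Wfdc15b, Napsa, Gchfr, Ggt1, Pck1 and Atp11a. Several are tubule genes. S100g, the calcium-binding calbindin-D9k, had 1605, 2938, 232 and 217 TPM. Egf, made in the distal tubule, had 144, 24.2, 2.85 and 7.28 TPM. Pck1, which encodes an enzyme of gluconeogenesis in the proximal tubule, had 43.8, 55.7, 6.01 and 5.34 TPM.

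The 10 with the largest excess in mouse 2 were Batf, Dynlt1-ps1, Exosc6, Phlda3, Guca2a, Rps27rt, Nfkbib, Cebpb, Rab3a and Cdkn2d. Cebpb, a stress- and cytokine-responsive transcription factor, had 100 and 49.6 TPM in mouse 1 and 412 and 486 TPM in mouse 2. Batf, an AP-1 family factor, had 0.0527, 0.617, 16.3 and 32.3 TPM. Rab3a, a small GTPase of regulated secretory vesicles, had 18.2, 6.77, 70.4 and 79.2 TPM, and Guca2a, the peptide guanylin, 7.66, 2.48, 56.7 and 54.0 TPM. Dynlt1-ps1 and Rps27rt are near-identical copies of other genes, so the split of reads between copies is uncertain.

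**Figure D3:**
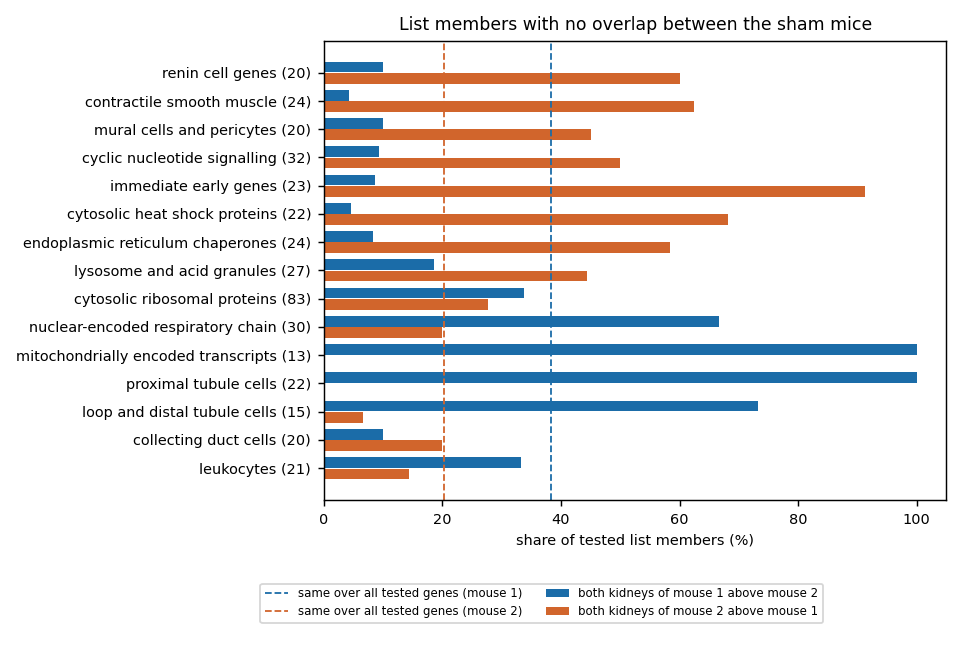
Share (%) of the tested members of each list (number in brackets) for which both kidneys of mouse 1 lay above both of mouse 2 (blue) or the reverse (orange); dashed lines give the shares over all tested genes, 38.3% and 20.3%. Immediate early genes reach 91.3% for mouse 2, and proximal tubule and mitochondrially encoded genes reach 100% for mouse 1.

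The second comparison, right minus left kidney, shows how far the sides differ without a coarctation. No gene passed at an adjusted p of 0.05 in edgeR's quasi-likelihood test over the 4 groups (0% of 18825; smallest adjusted p = 0.51). The unadjusted p was under 0.05 for 366 genes (1.94%), of which 159 had higher and 207 had lower right kidneys. The kidneys are pairs from the same mouse, and with mouse as a block edgeR also called none (0%; smallest adjusted p = 0.653), while 566 genes (3.01%) had an unadjusted p under 0.05. DESeq2, which was fitted without the block and so ignores the pairing, called 28 of the 15751 genes to which it gave an adjusted p (0.178%). Of these, 16 were higher and 12 lower. The direction was shared by both mice for 24.3% of genes lower and 24.5% higher in the right kidney. Only 2 pairs were available.

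The genes that define the cells did not move one way. Ren1 had a log2 change of -0.57 in mouse 1 and 0.15 in mouse 2, EYFP -0.19 and 0.45, Akr1b7 -0.44 and 0.25, and Lmna -0.47 and 0.20. These 4 genes were lower in the right kidney of mouse 1 and higher in that of mouse 2. Acta2 was higher in the right kidney of both (0.19 and 0.33), and Myh11 was 0.44 in mouse 1 and -0.01 in mouse 2. In the edgeR fit the log2 change of Ren1 was -0.09 (SE 0.42; adjusted p = 1). None of the 20 renin cell genes and 1 of the 24 contractile genes was at an unadjusted edgeR p under 0.05. The share over all tested genes was 1.94%, so lists of this size cannot show fewer such genes than other lists. Median log2 changes of the lists were -0.08 and 0.07, against 0.02 over all tested genes.

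**Figure D4:**
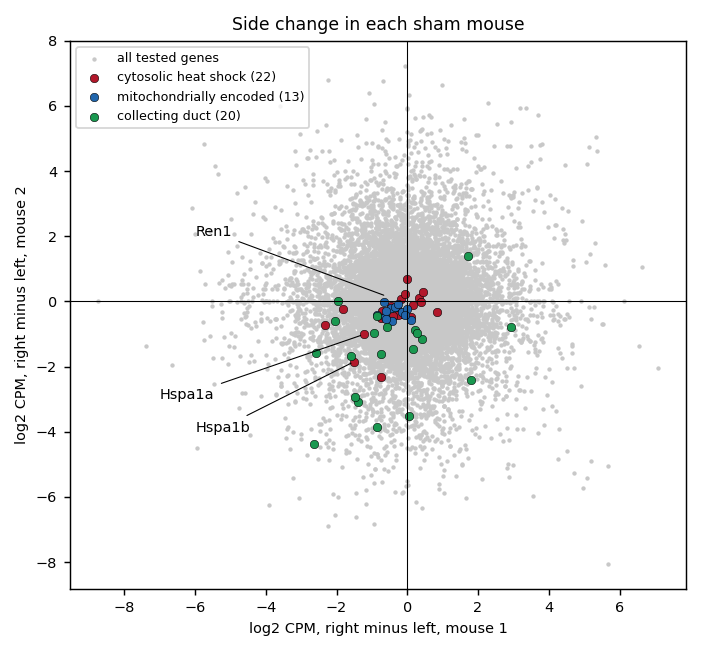
Right minus left change in log2 CPM for each tested gene, mouse 1 on the horizontal and mouse 2 on the vertical axis. Most heat shock, mitochondrially encoded and collecting duct genes lie in the lower left quadrant, where 24.3% of all tested genes lie, and Ren1 lies in the upper left.

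Hspa1b and its copy Hspa1a were lower in the right kidney of both mice, and neither passed the edgeR test. Hspa1b, an HSP70 chaperone that is transcribed when proteins unfold (chromosome 17, GRCm38, 34956436 to 34959238, minus strand, 1 exon), had 130 TPM in the left and 48.6 TPM in the right kidney of mouse 1, and 195 and 54.0 TPM in mouse 2. Both left kidneys lay above both right kidneys, a separation favoured by its choice among genes of smallest p. Its log2 change was -1.71 (SE 0.38), and it missed the threshold in edgeR without (adjusted p = 1) and with the block (adjusted p = 0.653), and in DESeq2 (adjusted p = 0.0785). Its copy Hspa1a (34969190 to 34972156, minus strand, 1 exon) had 98.9, 44.8, 162 and 80.3 TPM (log2 change -1.08, SE 0.47). Reads of 2 genes this alike may be split arbitrarily, so the separate values are uncertain. Hspa1b was named by a rule that required a shared direction in both mice, and Hspa1a may share its reads. Their common direction is therefore no separate support.

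The 250 bases before the RefSeq starts of both genes follow (GRCm38.p6, minus strand, Hspa1b at chr17:34959239-34959488 and Hspa1a at chr17:34972157-34972406). They are shown because Hspa1b is among the named genes and Hspa1a is its copy. The capitals mark a GAANNTTC match, a pair of inverted units of the heat shock element, at -104 to -97 in each.
Hspa1b: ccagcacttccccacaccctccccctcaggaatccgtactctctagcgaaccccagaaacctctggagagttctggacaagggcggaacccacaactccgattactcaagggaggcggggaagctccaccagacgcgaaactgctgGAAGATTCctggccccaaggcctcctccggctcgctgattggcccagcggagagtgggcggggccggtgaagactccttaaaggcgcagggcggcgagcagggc
Hspa1a: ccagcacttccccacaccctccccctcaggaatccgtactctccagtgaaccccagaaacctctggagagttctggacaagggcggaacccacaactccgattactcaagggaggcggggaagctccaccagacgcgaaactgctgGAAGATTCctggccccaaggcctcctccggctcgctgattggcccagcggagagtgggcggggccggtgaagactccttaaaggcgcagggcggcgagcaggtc
The windows differ at 3 of 250 bases, at positions -207, -204 and -2. A pair of such units, GAANNTTC or TTCNNGAA, each its own reverse complement, occurs in 14.5% of all windows and in 8 of the 17 heat shock genes with a window (47.1%). Binding was not measured.

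The wider heat shock list followed in part. In the fit 16 of 22 genes had a log2 change below 0, against 48.4% of all tested genes. Of the 22, 13 were lower in the right kidney of both mice and 2 higher in both, against 24.3% and 24.5%. The median log2 change was -0.31 (-0.28 in mouse 1, -0.32 in mouse 2). At an unadjusted p under 0.05 there were 3 of the 22 without the block and 6 with it, all lower, where the shares over all tested genes were 1.94% and 3.01%. Hspa1b and Hspa1a belong to the list and are in both counts, so the counts are not separate from the pair described above. None was at an adjusted p under 0.05 by edgeR. Hsp90aa1, the inducible HSP90, had 376, 252, 502 and 390 TPM, and the small heat shock protein Hspb1 888, 569, 2475 and 2003 TPM. Dnajb1, the J-domain partner of HSP70, had 18.6, 3.94, 47.9 and 29.2 TPM. The constitutive Hspa8 differed less between sides, with 487, 419, 941 and 825 TPM, and the lens crystallin Cryab (689, 953, 920 and 896 TPM) was higher in the right kidney of mouse 1.

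Mitochondrially encoded transcripts also leaned to the left kidney. All 13 had a log2 change below 0 and 12 were lower in both mice, against 48.4% and 24.3% of all tested genes. Their median was -0.38. mt-Co3, a subunit of cytochrome oxidase, had 28257, 19605, 19435 and 13325 TPM. None passed the threshold in edgeR, and 4 were at an unadjusted p under 0.05 with the block, against 3.01% of all tested genes. Of 30 nuclear-encoded respiratory genes, 21 were below 0 and 16 were lower in both mice, against the same 48.4% and 24.3%, with a median of -0.08.

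Collecting duct markers were mostly lower on the right. Of 20, 17 had a log2 change below 0, against 48.4% of all tested genes, with a median of -0.94. In the right kidney of both mice 11 were lower, against 24.3% of all tested genes. Lower right kidneys were seen for 12 of the 20 in mouse 1 and for 18 in mouse 2. Many of these markers were low, with 10 of 20 at 1 TPM and 3 at 10 TPM in all 4 libraries. Fxyd4, a sodium pump regulator of the collecting duct, had 172, 59.9, 158 and 48.7 TPM, next to Aqp2 above. None passed in edgeR. The heat shock and mitochondrial values stand beside this shift in tubule transcripts, whose part in them was not tested. Leukocyte markers went opposite ways in the mice, with 17 of 21 lower in the right kidney of mouse 1 and 6 of 21 in mouse 2. Loop and distal tubule markers did so too, with 13 of 15 and 2 of 15. Of 23 immediate early genes, 6 were below 0 in the fit (median 0.20), against 48.4% of all tested genes. Of the 23, 5 were lower in both mice and 10 higher in both, against 24.3% and 24.5% of all tested genes. In mouse 1 alone 13 of the 23 were lower in the right kidney, and in mouse 2 alone 5. Cytosolic ribosomal protein genes had a median of -0.10, with 65 of 83 below 0 and 39 lower in both mice, against 48.4% and 24.3%. That lean was in mouse 1, where 68 of 83 were lower (median -0.20), while without mouse 1 the count was 43 of 83 (median -0.01).

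The 10 genes of smallest p that were higher in the right kidney of both mice were Zdbf2, R3hcc1l, Abcb6, Cnot6l, Zbtb25, Zfp612, Ptch1, Fam168b, Tmem123 and Nprl3. Most were low. Ptch1, the receptor and target gene of Hedgehog signalling, had 0.599, 3.44, 0.768 and 2.50 TPM (log2 change 2.06, SE 0.59). Abcb6, a mitochondrial porphyrin transporter, had 1.72, 16.5, 1.07 and 5.44 TPM (2.89, SE 0.73). Nprl3, part of a complex that restrains mTORC1, had 7.34, 23.7, 6.92 and 20.4 TPM (1.59, SE 0.47). In each of these 3 genes both right kidneys lay above both left kidneys. The choice by p and shared direction favours such a separation, so it is no added support. None of the 10 passed in edgeR (adjusted p = 1). DESeq2, fitted without the mouse block, called Zdbf2, R3hcc1l, Abcb6, Zbtb25, Ptch1 and Nprl3 (adjusted p from 0.000242 to 0.049).

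The 10 of smallest p that were lower in both right kidneys were Ulk4, Hspa1b, Nhsl2, Il13ra1, Gatsl2, Dnaja4, Mphosph9, Avl9, Fam20b and Obfc1. Il13ra1, a receptor chain for interleukin-13, had 8.38, 1.99, 5.395 and 2.23 TPM (log2 change -1.72, SE 0.44). Dnaja4, a J-domain partner of HSP70, had 3.68, 1.65, 6.27 and 0.835 TPM (-2.09, SE 0.60). Ulk4, a pseudokinase, had the widest spread, with 57.3, 0.921, 6.34 and 0.236 TPM (-5.85, SE 1.23). In each of these 3 genes both left kidneys lay above both right kidneys. The rule that chose them favours this separation too, so it is no added support. None of the 10 passed in edgeR with the low-count filter (adjusted p = 1), and without that filter edgeR called Ulk4 (adjusted p = 4.46e-10) and Nhsl2 (adjusted p = 0.00729). DESeq2 called Ulk4, Nhsl2 and Gatsl2 (adjusted p from 5.39e-05 to 0.0261). Neither DESeq2 nor the fit without the filter used the mouse block, so these calls ignore the pairing.

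**Figure D5:**
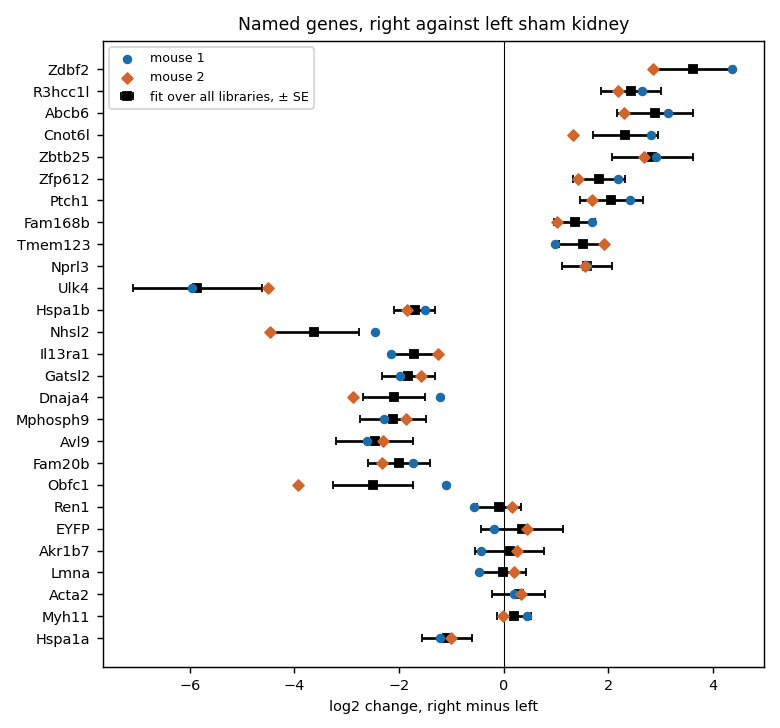
Right minus left log2 change of the named genes, with the edgeR estimate (black square, bar ± SE) and the change in mouse 1 (blue) and mouse 2 (orange). The first 10 genes lie above 0 and the next 10 below 0 in both mice, as the rule that chose them required, whereas Ren1, EYFP, Akr1b7, Lmna and Myh11 have mice on both sides of 0.

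The last comparison asks whether the side difference after coarctation departs from that in sham mice. No gene passed in edgeR's quasi-likelihood test (0% of 18825; smallest adjusted p = 0.391). The unadjusted p was under 0.05 for 575 genes, and DESeq2, also without the block, called 34. For Ren1 the side change was lower by 2.11 on the log2 scale in coarctation mice than in sham mice (SE 0.55; edgeR adjusted p = 1, and 0.181 with the block). For Hspa1b it was higher by 1.94 (SE 0.49; edgeR adjusted p = 1, and 0.537 with the block). The lowest of the 6 coarctation values of Hspa1b (93.9 TPM) lay above both right sham kidneys (48.6 and 54.0 TPM), whereas the left sham kidneys (130 and 195 TPM) lay inside the coarctation range (93.9 to 228 TPM). Transcripts of the Y chromosome were near 0 in coarctation mouse 1 and present in the sham mice, and without that mouse edgeR called 0 genes for this difference (smallest adjusted p = 0.468).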

How the data were processed

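RNA of sorted renin cells was measured in each kidney separately, and the 4 sham libraries were described while all 10 entered the fits. The deposited table gives TPM, estimated counts and average transcript length for each of 32648 genes in each library per the file headers. The estimated counts are TPM scaled by the authors for length and library size, as a column of the deposited file states, so they are not whole numbers. The submitters' processing notes name FastQC and GRCm38 (mm10), while the sources used here name neither aligner nor quantifier. Groups and mouse numbers came from the labels.

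Estimated counts were rounded, filtered with filterByExpr (18825 genes left), scaled by TMM and fitted in edgeR 4.0.16 (R 4.3.3) as 4 group means over 10 libraries, with a common dispersion of 0.45, 6 residual degrees of freedom and Benjamini-Hochberg adjustment over all tested genes. Standard errors are from this fit. Changes within a mouse are differences of log2 CPM with a prior count of 2. Both kidneys of a mouse come from the same animal, so numbers pair the samples. The deviations from the group means correlated at 0.398 in sham mice, a value that is the same for both by construction, and at 0.127, 0.0496 and 0.0307 in coarctation mice 1, 2 and 3. Alternatives were the block, DESeq2 1.42.0, limma 3.58.1, other scaling and filters, and leaving out each mouse. DESeq2, limma and the other scaling and filters were fitted as group means, without the block. The scripts were tested on simulated data.

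Named genes were the 25 of highest mean TPM and the leading members of 32 lists. Between sides they were the 10 each way of smallest p whose mean log2 CPM was 2 or more and whose direction was shared by both mice, and between mice the 10 each way with the largest difference of log2(TPM + 1) and a mean of 10 TPM or more. Predicted genes were left out. Other genes named from the lists were chosen after their values were seen, and the members and lists were chosen with earlier results of these data known. Positions are from GENCODE vM21 (GRCm38), and 184 of 190 symbols looked up had 1 position. Promoter windows are from RefSeq (GRCm38.p6).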

Additional observations from a re-analysis of the deposited data

How the results depend on the processing

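With mouse as a replicate block, the count of called genes stayed at 0 for both tests, and the block changed no other call. The count for right minus left in sham mice moved from 0 to 28 with DESeq2 (16 higher, 12 lower), to 19 without a low-count filter (10 higher, 9 lower) and to 2 in limma on log2(TPM + 1), both lower. The first 2 sets shared 7 genes, and none of these fits used the mouse block. The pair called by limma was Gm13511 and Tmem247, named after the values were seen. For the difference between coarctation and sham side changes the count moved from 0 to 34 with DESeq2 and to 63 without the filter, and leaving out mice gave 0 to 1, the 1 being the predicted gene Gm10123 without coarctation mouse 3. The cause was not tested. All other alternatives gave 0. The number of genes at 10 TPM or more was 3741 and ran from 3953 to 4997 under the alternatives, and the number 2-fold apart between mice was 944, and 999 with a pseudocount of 0.1.

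The sign of several log2 changes near 0 turned, and the cause was not tested. For Akr1b7 (0.11) it was -0.0949 with the replicate block, -0.0858 in limma-voom, -0.0554 in limma on log2(TPM + 1), -0.0555 on log2(TPM + 0.1) and -0.0912 in sham libraries alone with the replicate block. Leaving out a sham mouse moved Akr1b7 between -0.4531 and 0.2523, Lmna (-0.02) between -0.4799 and 0.2056, Ren1 between -0.5842 and 0.1538, EYFP between -0.2019 and 0.4561 and Myh11 between -0.0059 and 0.4244. Lmna was at 0.0052 with DESeq2 and with its size factors in edgeR. Of the other values, 516 stayed on their side of the threshold, within the spread between mice or, for counts of list members, within a set fold. A further 19 moved beyond that, and 11 changes of named genes passed with DESeq2 or without the filter. Among the 19 were counts of members lower in the right kidney. Without sham mouse 2, the contractile count went from 8 to 15 and the immediate early count from 6 to 13. With 2 pairs, a common dispersion of 0.45 limits which changes can pass.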

Other observations

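Genes of the Y chromosome were detected in all 4 sham libraries, where Ddx3y, Uty, Eif2s3y and Kdm5d summed to 88.2, 76.7, 114 and 89.4 TPM. The lowest sum among the coarctation libraries was 2.36 TPM, in coarctation mouse 1. Eif2s3y, a translation factor subunit, had 52.2, 44.8, 70.4 and 52.1 TPM in sham libraries. These genes were chosen after their values were seen. Without coarctation mouse 1, edgeR called 0 genes for the difference in side change, with 545 at an unadjusted p under 0.05.

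Of 34 ion channel and calcium-handling genes, 11 were higher in mouse 1 and 6 in mouse 2 without overlap. These shares (32.4% and 17.6%) lay near those of all tested genes (38.3% and 20.3%). Trpc6, a cation channel of vascular smooth muscle, averaged 25.02 ± 3.95 TPM. The inositol trisphosphate receptor Itpr1 averaged 24.3 ± 2.55 TPM. Atp2b4, a calcium pump of the plasma membrane, had 30.7, 28.8, 23.3 and 21.0 TPM in sham libraries against 5.66 to 13.7 TPM in the coarctation libraries, a description with no test. Trpm4, a calcium-activated cation channel, had 18.7, 42.1, 29.5 and 26.3 TPM, and Gapdh, a glycolytic enzyme, 728 to 799 TPM.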
